A study of Rattus norvegicus with 18 samples.

Results

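The genes described here encode the machinery that stores transmitter in synaptic vesicles, fuses the vesicles with the nerve terminal membrane and retrieves them. The list named 43 genes, and every probe set whose single gene symbol in the platform annotation was one of them was taken. A probe set is the group of short probes on an array that reads 1 transcript. This gave 58 probe sets of 40 genes, out of 8740 probe sets on the array that were not controls. Stx2, Napb and Pclo had no probe set. Probe sets were matched by gene name and not by a measured value. The list itself was chosen with earlier results of these data known.

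Release of transmitter starts when a vesicle docks at the active zone, a protein scaffold at the presynaptic membrane, and is primed for fusion. Fusion is driven by SNARE proteins, Vamp on the vesicle and syntaxin and Snap25 on the plasma membrane, which zip into 1 complex. Synaptotagmins sense calcium and trigger the step, Nsf and Napa take the spent complexes apart, and dynamin pinches membrane off for reuse. In the suprachiasmatic nucleus (SCN), the hypothalamic pacemaker of daily rhythms in mammals, most neurons release GABA together with peptides.

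SCN tissue came from adult male Long-Evans rats that had lived in alternating light and dark and were released into constant darkness at the usual lights-off. Starting at the lights-on that would have come next, called circadian time (CT) 0, rats were killed every 6 h under isoflurane. RNA of the 5 rats of a time was pooled, so the groups are 8 pools of untreated animals, at 0, 6, 12, 18, 24, 30, 36 and 42 h, and each of CT 0, CT 6, CT 12 and CT 18 has 2 pools, 1 per day. RNA was read on rat U34A GeneChips, 1-colour oligonucleotide arrays, in a first run of 10 arrays, of which the 24 h and 36 h times had 2 each (a and b), and in a technical repeat of 8 arrays from the same pools. Arrays a and b of a time were assumed to read the same pool.

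Values are intensities on a linear scale, and a pool's value is the geometric mean of both runs. Median intensity was 136.5 to 152.3 on first-run arrays and 107.9 to 127.6 on repeat arrays. The first-run arrays at 12 h and 18 h and array b at 36 h had hybridisation controls at 619 to 1174, against 238 to 417 on the others. Since 1 pool stands for each time, p-values measure the spread between pools, part of which is array error. The number of pools limits the precision. Of the SCN neuron markers, 6 of 9 on the array lay above the level filter, a mean intensity of 121, while Vip, Lhx1 and Rorb lay below it at 49.0, 14.9 and 17.5. Of other markers, 8 of 8 general neuronal, 6 of 6 oligodendrocyte, 7 of 7 astrocyte, 4 of 6 microglial, 3 of 3 choroid plexus and 8 of 9 neighbouring hypothalamic genes lay above it. Of 2 listed markers of glutamatergic neurons, 1 was on the array, Slc17a7, which stayed at 12.1 to 13.9, at the floor of the data. The other, Slc17a6, had no probe set, and the presence of such neurons was not tested. In such tissue fewer cells of a type and less RNA per cell cannot be told apart.

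Promoters are shown for the member with the smallest exact permutation p of the rhythm (Dnm1), the member with the most clock-related motifs (Napa) and the classic neuronal promoter of Syn1. The stretches hold the 250 bases before the start site from RefSeq on build GRCr8, and capitals mark an E-box (CACGTG, bound by the clock's activators) or a cyclic AMP response element (CRE, TGACGTCA, the site of the activity-dependent factor CREB).
Dnm1, chr3:36046290-36046539, minus strand: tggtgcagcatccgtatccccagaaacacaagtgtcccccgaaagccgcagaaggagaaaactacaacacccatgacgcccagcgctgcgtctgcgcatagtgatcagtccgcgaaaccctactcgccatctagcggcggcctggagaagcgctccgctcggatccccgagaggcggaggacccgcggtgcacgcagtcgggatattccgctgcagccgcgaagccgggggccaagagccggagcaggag
Napa, chr1:85915185-85915434, plus strand: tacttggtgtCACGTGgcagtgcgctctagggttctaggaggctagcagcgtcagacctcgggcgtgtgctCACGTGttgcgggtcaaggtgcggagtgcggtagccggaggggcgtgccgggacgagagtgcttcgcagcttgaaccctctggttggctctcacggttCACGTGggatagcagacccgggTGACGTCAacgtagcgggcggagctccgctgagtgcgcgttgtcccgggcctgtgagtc
Syn1, chrX:3725495-3725744, plus strand: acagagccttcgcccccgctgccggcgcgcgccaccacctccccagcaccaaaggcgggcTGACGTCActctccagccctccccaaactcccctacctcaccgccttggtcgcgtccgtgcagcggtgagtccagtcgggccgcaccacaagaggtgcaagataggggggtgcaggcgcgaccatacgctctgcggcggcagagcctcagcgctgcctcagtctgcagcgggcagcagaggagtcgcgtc

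Of the 40 genes, 35 had a promoter in the RefSeq table, read on both strands from 250 bases before to 50 after the start. An E-box was found in 4 of the 35 (Napa with 3, and Nsf, Stx6 and Syt6), which is 11.4%, against 7.69% of 19005 protein-coding genes. Of these 4, only Napa had a probe set above the level filter. A CRE was found in 3 (Napa, Syn1 and Vamp1), 8.57% against 2.28%. Its first letters TGACG alone, which every CRE also holds, were found in 13, or 37.1% against 25.1%, Dnm1, Syt4 and Vamp2 among them. The D-box TTATGTAA, the site of Dbp and its relatives, was found in 0 of 35 (0.900% of the 19005 genes), and the TATA box letters TATAAA in 0 of 35 (14.0% of the 19005). The letters GGGCGG of a GC box were found in 26 of 35, 74.3% against 44.1%, and the median GC content of the 250 bases before the start was 64.2% against 54.0%. Matches describe letters in these windows and were not set against binding.

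Above the level filter lay 31 of the 58 probe sets, from 25 genes. The members spanned the measurable range, from Dnm1 at a mean intensity of 23945 down to Nsf, whose probe sets had 17 and 8 of 18 arrays at the floor of 12.1. As probe sets differ in how strongly they bind, their intensities do not rank the genes. Below the filter with every probe set were 15 genes: the synaptotagmins Syt1, Syt2, Syt6, Syt7 and Syt11, the syntaxins Stx3, Stx6 and Stx7, the vesicle GTPase Rab3a, the SNARE-dismantling ATPase Nsf, the fusion clamp Cplx2, the scaffold genes Rims1 and Bsn, and the priming factors Unc13a and Unc13b. A low reading of such a probe set is no proof of a rare transcript: of 4 Snap25 probe sets, 2 had means of 434 and 297 and the others 32.9 and 13.8, and Sv2b had 1858 on 1 probe set and 12.5 on the other. The filter did not depend on a group, since it used the mean over all 8 pools. Just inside it lay Amph at 136, and just outside the dimmer Vamp1 probe set at 107.

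**Figure D1:**
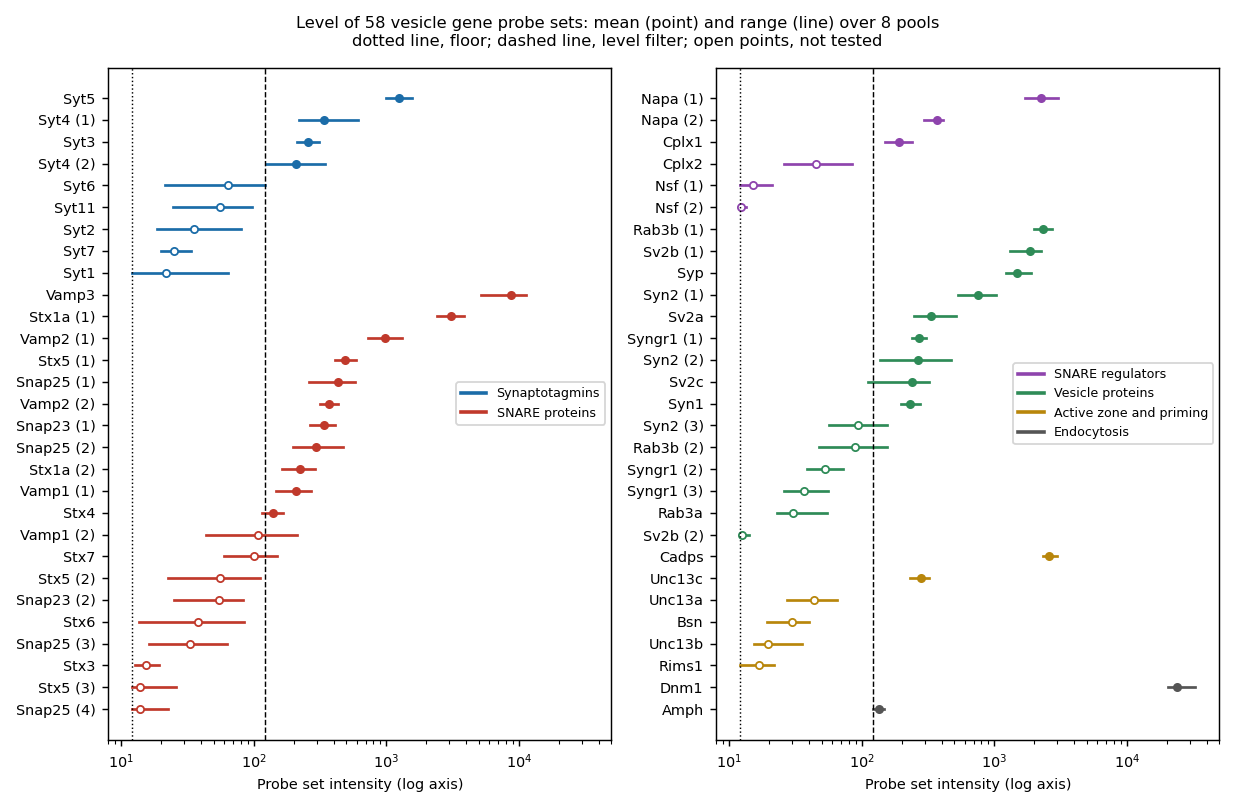
Mean intensity (point) and range over the 8 pools (line) of the 58 probe sets on a log axis, grouped by role, with the floor at 12.1 (dotted) and the level filter at 121 (dashed). Numbers in brackets order the probe sets of 1 gene from the brightest; 31 filled points lie above the filter, and Dnm1 is the highest.

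A 24 h cosine and sine were fitted to the 8 pools, and limma's F test asked for a daily rhythm. None of the 31 member probe sets passed at an adjusted p under 0.05, as none of the 4370 tested did (0%), and 3 had an unadjusted p under 0.05, 9.68% against 6.36% of all. These were the dimmer of 2 tested Snap25 probe sets, Dnm1, and the brighter Syt4 probe set. The median amplitude (fitted mean to fitted peak) was 0.170 on the log2 scale for members and 0.158 for all. For CT 12 minus CT 0, the end against the start of the subjective day, 0 of 31 passed (0% of all) and 6 had an unadjusted p under 0.05, 19.4% against 8.67% of all. Of these 6, 4 were higher at CT 12 (Dnm1, the brighter Stx1a probe set, Syt3 and Sv2b; 4.19% of all) and 2 were lower (Snap25 and Syt4; 4.49% of all). Both the count and the split depended on scaling. With quantile normalization 2 were higher and 2 lower, and with scaling to each array's median 1 was higher and 3 were lower. The median difference was -0.02 for members and 0.01 for all, and the members' median had no fixed sign, running from -0.11 to 0.07 over the alternative settings.

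The sign of CT 12 minus CT 0 was the same on both days for 15 of 31 members (48.4%), against 61.4% of all tested probe sets. The pools of these phases did not overlap for 12 of 31 (38.7%), against 44.8% of all. For 8 members, 25.8% against 22.2%, the sign was the same on both days in both runs: Dnm1, Snap25 (dimmer), Syt3, Syt4 (brighter), Stx1a (brighter), Stx5, Vamp3 and Napa (brighter). With 0 adjusted calls, what follows describes single genes by role.

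The synaptotagmins differed from one another. Syt1, the fast calcium sensor of most synapses, read 12.1, 12.1, 12.7, 64.5, 18.2, 24.3, 16.2 and 55.0 in the pools from 0 to 42 h, with 8 of 18 arrays at the floor. Its highest pools were both at CT 18, but all 8 lay below the filter and no test was made. Syt4, an activity-regulated synaptotagmin of neuropeptide vesicles, read 611, 380, 299, 219, 390, 349, 221 and 409 on its brighter probe set. The CT 0 pools lay above the CT 12 pools on both days, by -1.03 (CT 12 minus CT 0) on day 1 and -0.82 on day 2, yet the lowest pools were at 18 h on day 1 and at 36 h on day 2. The fitted amplitude was 0.48 ± 0.16 (SE, n = 8 pools, limma adjusted p = 0.746) with a peak at CT 1.13. Its exact permutation p was 0.127, not adjusted. That test was run for the tested members alone, so no share of all probe sets stands beside it. CT 12 minus CT 0 was -0.93 ± 0.31 (limma adjusted p = 0.514), and -0.68 in the first run and -1.17 in the repeat.

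The paired first-run arrays read Syt4 at 501 (a) and 265 (b) for the 24 h pool, and 337 (a) and 107 (b) for the 36 h pool, log2 differences of -0.92 and -1.65 that are as wide as the phase difference. The dimmer Syt4 probe set, named for the same sequence, read 344, 209, 251, 123, 231, 229, 135 and 229, with -0.62 ± 0.37 for CT 12 minus CT 0 (limma adjusted p = 0.648). Its CT 12 and CT 0 pools overlapped, and its exact permutation p of the rhythm was 0.492.

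Syt3, a synaptotagmin with high calcium affinity, ran the other way, with 212, 274, 298, 224, 251, 274, 313 and 233. On both days it was lowest at CT 0 or CT 18 and highest at CT 12, by a day 1 difference of 0.49 and a day 2 difference of 0.32 from CT 0. The amplitude was 0.24 ± 0.09 (SE, n = 8; limma adjusted p = 0.746, exact permutation p = 0.0254) with a peak at CT 9.80, and CT 12 minus CT 0 was 0.30 in the first run and 0.51 in the repeat. Syt5, a further calcium-sensing synaptotagmin, lay between 994 and 1555 with an amplitude of 0.01 ± 0.11. The dim members ranged over 18.5 to 80.7 for Syt2, 21.5 to 123 for Syt6, 19.8 to 33.7 for Syt7 and 24.5 to 96.7 for Syt11.

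**Figure D2:**
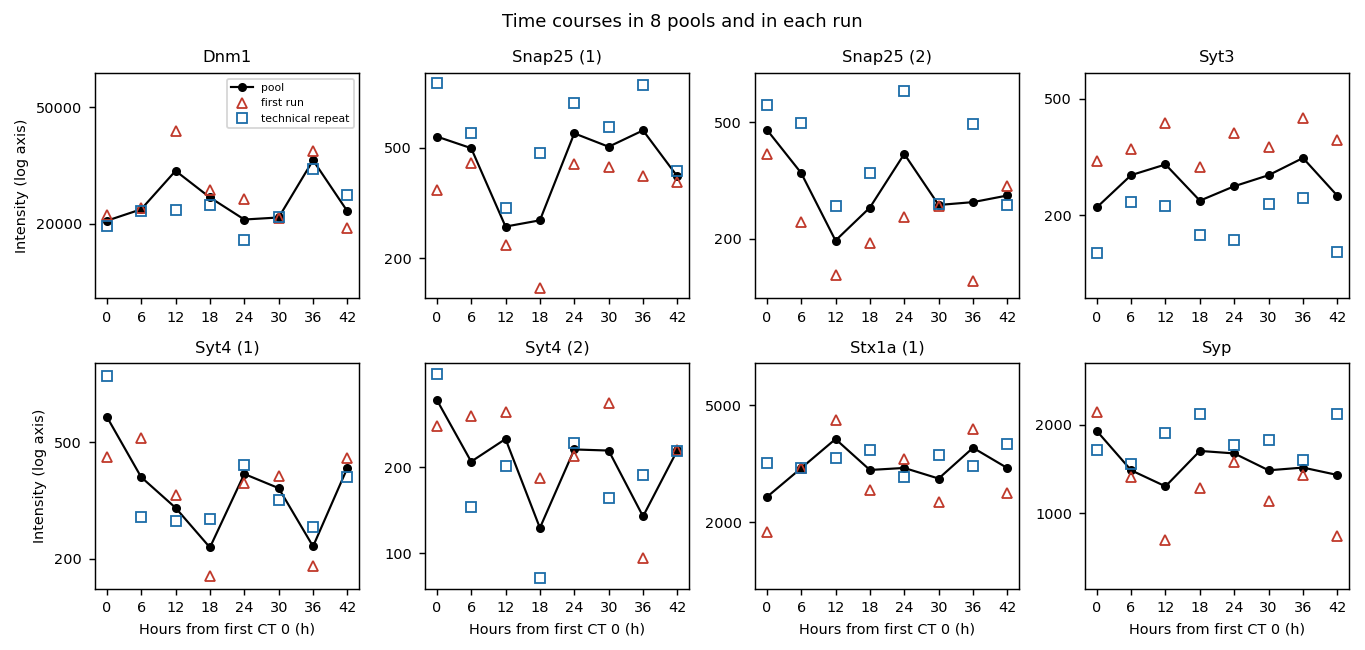
Intensity (log axis) against hours from the first CT 0 for 8 probe sets, with the pool (black line), the first run (triangles) and the technical repeat (squares). Dnm1 peaks at 12 h and 36 h in the pools, Syt3 has a repeat below the first run at all 8 times, and the Syp runs part at 12 h, 810 against 1880.

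Among the SNARE proteins, Snap25, the neuronal plasma membrane SNARE, had 2 testable probe sets named for the same sequence. The dimmer read 472, 336, 197, 256, 390, 261, 267 and 281. Both CT 0 pools lay above all other pools, with an amplitude of 0.46 ± 0.11 (SE, n = 8; limma adjusted p = 0.746, exact permutation p = 0.0254), peaking at CT 0.599. CT 12 minus CT 0 was -0.90 ± 0.22 (limma adjusted p = 0.456), -1.26 on day 1 and -0.55 on day 2. By run it was -1.05 in the first run and -0.76 in the repeat, and at 36 h the runs read 144 and 495. The CT 0 pools were the 2 highest in the repeat but not in the first run. There the 24 h arrays read 307 (a) and 184 (b), against 260 at 30 h and 303 at 42 h.

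The brighter Snap25 probe set read 549, 499, 260, 274, 564, 505, 578 and 394. It was low at 12 h and 18 h of day 1 but not at 36 h, so that CT 12 minus CT 0 was -1.08 on day 1 and 0.04 on day 2. Its CT 6 minus CT 18 difference of 0.61 ± 0.33 and its day 2 minus day 1 difference of 0.43 ± 0.20 had the smallest p of the members in those comparisons (limma adjusted p = 0.968 and 0.997). On the dimmer probe set the day difference was -0.02. The exact permutation p of the rhythm was 0.308 on the brighter one.

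Stx1a, the syntaxin of the neuronal complex, read 2433, 3053, 3840, 3011, 3060, 2815, 3585 and 3056 on its brighter probe set, whose CT 12 pools lay above the rest. CT 12 minus CT 0 was 0.44 ± 0.18 (limma adjusted p = 0.559), but 0.80 in the first run and 0.09 in the repeat, where all 8 pools lay between 2859 and 3706. Without the 3 arrays with high controls it was 0.16. The paired first-run arrays read 2122 (a) and 5052 (b) at 24 h, and 2564 (a) and 6711 (b) at 36 h. These are log2 differences of 1.25 and 1.39, wider than the phase difference. The fitted amplitude of this probe set was 0.22 ± 0.09 (limma adjusted p = 0.775, exact permutation p = 0.0444). The dimmer probe set read 222, 281, 208, 162, 197, 237, 223 and 290 with a difference of 0.04 ± 0.26. Its exact permutation p of the rhythm was 0.686.

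Vamp2, the main vesicle SNARE of the brain, read 1245, 819, 935, 1324, 1017, 842, 1019 and 728 on its brighter probe set and 318, 431, 325, 407, 370, 348, 353 and 394 on the other. These probe sets ordered the pools differently, and their amplitudes were 0.16 ± 0.14 and 0.03 ± 0.10 (limma adjusted p = 0.869 and 0.991). Vamp3, the SNARE of general endosomal traffic, read 8327, 10336, 11247, 5182, 9917, 7833, 11191 and 7453. Its low value at 18 h came from the first-run array, at 2866 against 9368 in the repeat, and that array was 1 of the 3 with high controls. CT 6 minus CT 18 was 0.53 ± 0.29 (limma adjusted p = 0.968).

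The other SNARE genes are given by their ranges over the pools. Snap23, the non-neuronal relative of Snap25, lay between 264 and 410 on its brighter probe set and between 24.9 and 82.5 on the other. Stx4, a surface syntaxin, lay between 115 and 165, with CT 12 minus CT 0 at -0.89 (first run) and 0.24 (repeat). The Golgi syntaxin Stx5 lay between 414 and 595, its other probe sets between 22.4 and 111 and between 12.1 and 26.0. Vamp1, a vesicle SNARE abundant in spinal cord, lay between 148 and 272, and its dimmer probe set between 43.9 and 212. Untested were Stx3 (12.7 to 19.4), Stx6 (13.7 to 83.8), Stx7 (59.5 to 149) and the dim Snap25 probe sets (16.2 to 62.4 and 12.1 to 22.4).

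Of the SNARE regulators, Napa, the adaptor that brings Nsf to spent complexes, read 1700, 2083, 2333, 3004, 2097, 2370, 2209 and 2470 on its brighter probe set and 401, 394, 296, 342, 364, 352, 411 and 413 on the dimmer. The former was lowest at CT 0 and highest at CT 18 on each day; its amplitude was 0.20 ± 0.11, peaking at CT 15.2, and that of the latter 0.07 ± 0.10, peaking at CT 23.6 (limma adjusted p = 0.798 and 0.951). Cplx1, a complexin that clamps and promotes fusion, lay between 149 and 241 and was 0.37 ± 0.21 higher at CT 12 than at CT 0 (limma adjusted p = 0.625). Cplx2 lay between 25.9 and 84.3, and the Nsf probe sets between 12.1 and 21.0 and between 12.1 and 13.3.

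Among proteins of the vesicle itself, Syp, the abundant membrane protein synaptophysin, read 1909, 1401, 1234, 1631, 1599, 1400, 1431 and 1350. The CT 0 pools lay above the CT 12 pools, at -0.39 ± 0.19 (limma adjusted p = 0.572), but the difference was -0.80 in the first run and 0.01 in the repeat. Syn1, a synapsin that tethers vesicles in the reserve pool, read 220, 222, 208, 214, 273, 196, 274 and 244, with an amplitude of 0.07 ± 0.11 (limma adjusted p = 0.952). Its promoter, shown above, holds a CRE.

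Syn2, the second synapsin, read 745, 760, 870, 625, 631, 993, 534 and 1027 on its brightest probe set and 288, 244, 348, 468, 192, 355, 138 and 235 on the next. The faintest Syn2 probe set lay between 56.9 and 154. The middle one had the largest day difference by size, -0.59 ± 0.30 (limma adjusted p = 0.997), which became 0.16 without the 3 arrays with high controls. Its first-run values ran from 201 to 1537 and its repeat values from 87.7 to 221.

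The SV2 proteins are vesicle glycoproteins that modulate release. Sv2b read 1314, 1906, 2246, 1743, 1930, 2001, 2126 and 1767, lowest at 0 h. CT 12 minus CT 0 was 0.46 ± 0.20 (limma adjusted p = 0.569), 0.79 in the first run and 0.12 in the repeat. Sv2c read 305, 276, 216, 324, 259, 112, 319 and 211, and its pool at 30 h was the lowest in both runs, 142 and 88.

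Sv2a read 336, 385, 297, 510, 249, 303, 271 and 365, lower on day 2 by a log2 difference of -0.35 ± 0.19 (limma adjusted p = 0.997), with overlapping days. Syngr1, the vesicle membrane protein synaptogyrin, read 249, 249, 285, 306, 241, 245, 293 and 295, high at CT 12 and CT 18 and low at CT 0 and CT 6 on both days. Its amplitude was 0.19 ± 0.08 with a peak at CT 15.3 (SE, n = 8; limma adjusted p = 0.775, exact permutation p = 0.0222). That order did not hold in the repeat, which read 230 and 218 at CT 12 against 258 and 218 at CT 0, and CT 12 minus CT 0 was 0.56 in the first run and -0.08 in the repeat. The small GTPase Rab3b lay between 1990 and 2708 with an amplitude of 0.02 ± 0.11, and its dim probe set between 47.3 and 156. Rab3a lay between 23.0 and 54.6, the dim Syngr1 probe sets between 38.4 and 72.1 and between 26.0 and 55.7, and the dim Sv2b probe set between 12.1 and 14.1.

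**Figure D3:**
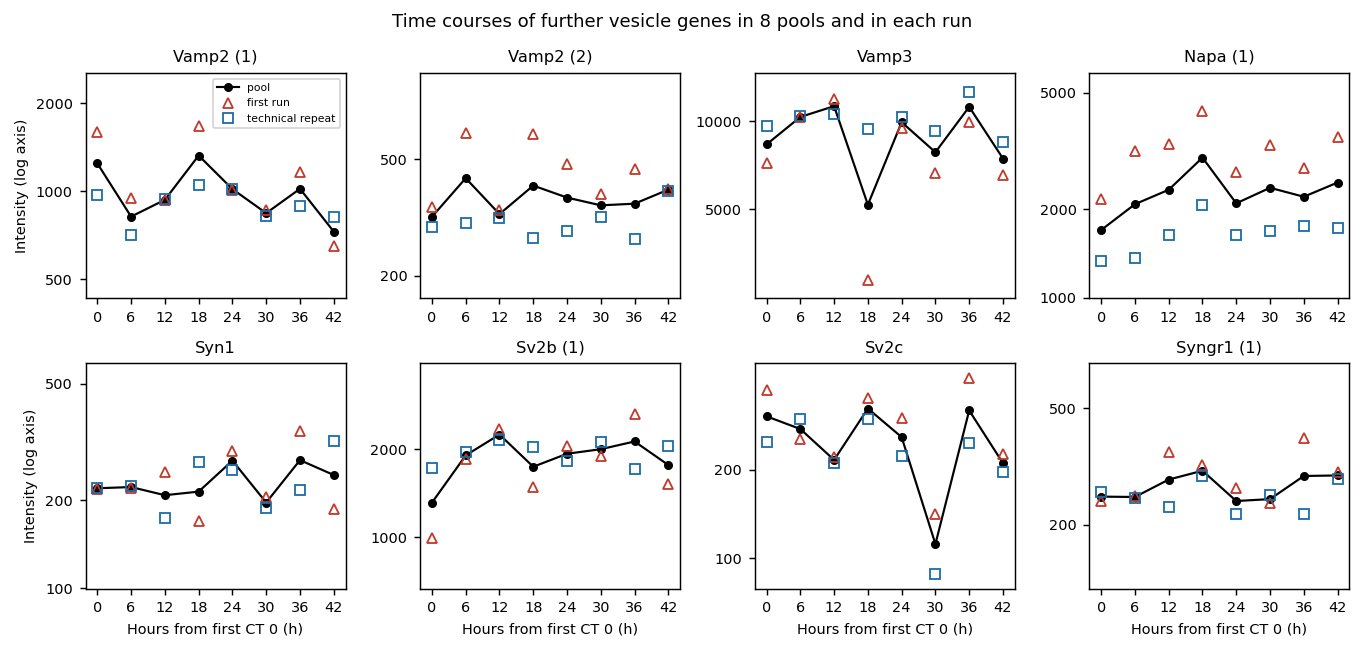
Intensity (log axis) against hours from the first CT 0 for 8 further probe sets, drawn as pool (black line), first run (triangles) and technical repeat (squares). Sv2c is lowest at 30 h in both runs, Vamp3 is low at 18 h in the first run alone, and the brighter Napa probe set has a repeat below the first run at all 8 times.

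Of the active zone and priming genes, only Cadps and Unc13c could be tested. Cadps, the priming factor of dense-core vesicles, lay between 2349 and 2975 with an amplitude of 0.06 ± 0.09. Unc13c, a Munc13 priming factor, read 290, 281, 240, 230, 294, 322, 322 and 295, and it was the 1 member of 31 whose pools did not overlap between days (3.23% against 1.88% of all). All 4 day 2 pools lay above all 4 day 1 pools, by 0.25 ± 0.13 (limma adjusted p = 0.997). The exact permutation p was 0.0286, not adjusted, the smallest that 4 pools against 4 allow. Days that do not overlap always give this value, so it restates the separation and adds no evidence. By run, the values at 36 h were 245 and 422, and at 0 h 227 and 369. In each run alone the days overlapped. The first run read 331 at 6 h and 314 at 42 h, and the repeat 369 at 0 h and 276 at 42 h. The untested scaffold and priming genes ranged over 12.1 to 22.0 (Rims1), 19.1 to 40.3 (Bsn), 27.5 to 65.0 (Unc13a) and 15.5 to 35.3 (Unc13b).

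For endocytosis, Dnm1, the neuronal dynamin that severs vesicles from the membrane, read 20477, 22410, 30322, 24592, 20677, 21012, 32960 and 22056. Both CT 12 pools lay above the other 6, and both CT 0 pools lay below them. The amplitude was 0.31 ± 0.09 (SE, n = 8; limma adjusted p = 0.746) with a peak at CT 12.6, and the exact permutation p was 0.00635 (not adjusted; the design allows 0.00317). CT 12 minus CT 0 was 0.62 ± 0.18 (limma adjusted p = 0.514), 0.57 on day 1 and 0.67 on day 2. It was 0.75 in the first run and 0.49 in the repeat.

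The arrays behind the Dnm1 peak were uneven. At 12 h the first run read 41388 and the repeat 22214, and at 36 h arrays a and b read 29615 and 42283 and the repeat 30700. The arrays at 41388 and 42283 were both among the 3 with high hybridisation controls, and without these 3 CT 12 minus CT 0 was 0.33 (limma adjusted p = 0.913). In the repeat the highest pool was at 36 h and the value at 12 h lay within the range of the other pools. The summed general neuronal markers ranged from 23944 to 27520, lowest at 6 h and highest at 36 h. For CT 12 minus CT 0, however, 3 of their 11 tested probe sets were positive and 8 negative, with a median of -0.10. The part of these markers in the Dnm1 values was not tested. Amph, the amphiphysin that recruits dynamin, lay between 121 and 148 with an amplitude of 0.06 ± 0.09.

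**Figure D4:**
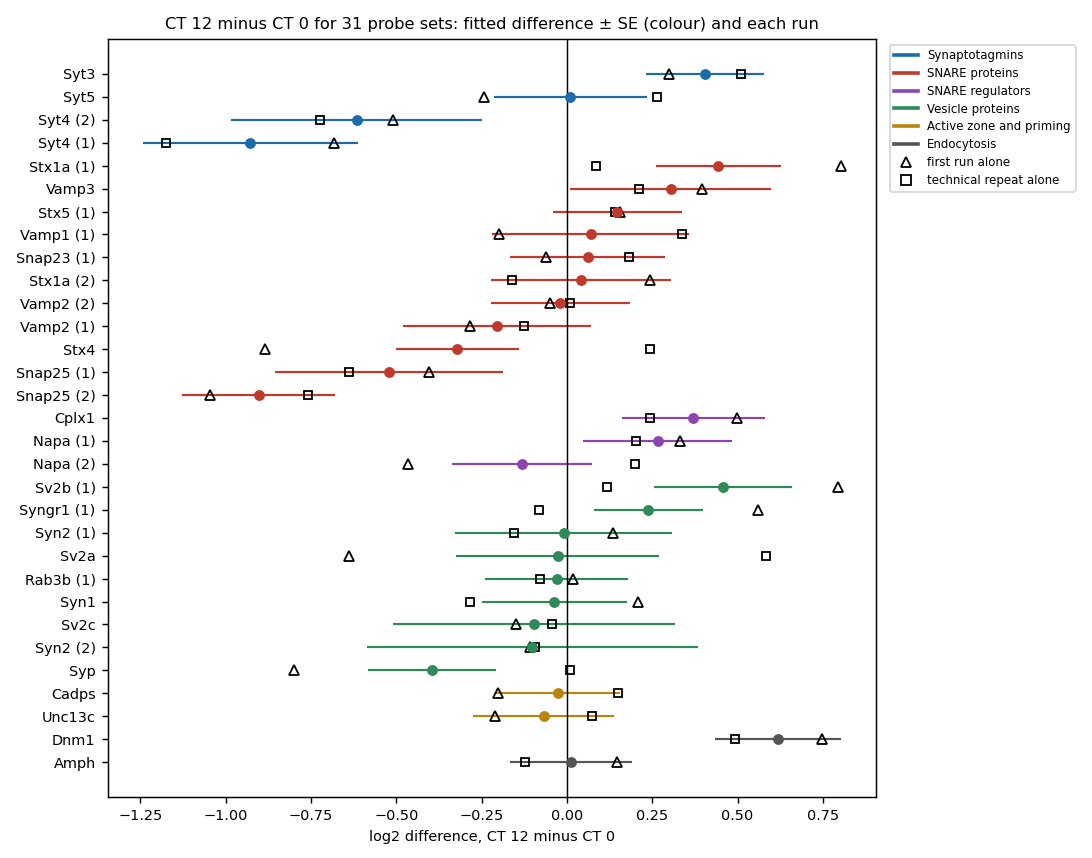
CT 12 minus CT 0 on the log2 scale for the 31 tested probe sets, as the fitted difference ± SE (colour by role) with the first run (triangle) and the technical repeat (square) alone. Dnm1 is the highest at 0.62 and the brighter Syt4 probe set the lowest at -0.93, and the runs lie on opposite sides of 0 for Stx4 and Sv2a, among others.

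CT 6 minus CT 18 compares mid-day with mid-night on the animals' own clock. None of the 31 members passed in limma's test (0.0229% of all did), and 0 had an unadjusted p under 0.05 (4.26% of all). The pools did not overlap for 7 of 31, 22.6% against 31.4% of all. Besides Snap25 and Vamp3, the smallest p values belonged to Syngr1, at -0.28 ± 0.16, and Syt3, at 0.26 ± 0.17 (limma adjusted p = 0.968 for each). The median was -0.03 for members and -0.02 for all.

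Day 2 against day 1 in constant darkness gave 0 of 31 adjusted calls with limma (0% of all) and 0 unadjusted (3.96% of all), with a median of -0.00437 for members and 0.00144 for all. The members with the smallest p were Snap25, Syn2, Unc13c and Sv2a, whose values are given above.

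Both runs read the same pools, so their difference is technical. It passed limma's adjusted threshold for 15 of 31 members, 48.4% of them, as it did for 48.4% of all. The repeat was higher for 5 (20.9% of all) and lower for 10 (27.5% of all), and its sign was the same in 8 of 8 pools for 11 of 31 (35.5% against 31.0%). The smallest adjusted p were those of Napa, whose probe sets were lower in the repeat by log2 differences of -0.92 ± 0.11 and -1.15 ± 0.14 (limma adjusted p = 8.01e-05 and 8.30e-05), of Syn2, at -2.04 ± 0.25 (limma adjusted p = 9.62e-05), and of Syt3, at -0.92 ± 0.11 (limma adjusted p = 0.000110).

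Higher in the repeat were Snap23 by 0.91, both Snap25 probe sets by 0.77 and 0.78, Vamp1 by 0.56 and Syp by 0.53. Lower were also Stx1a (dimmer, -0.49), Vamp2 (dimmer, -0.54), Stx5 (-0.74), the brightest Syn2 probe set (-0.69), Sv2a (-0.81) and Sv2c (-0.34). With scaling to each array's median, which moved the median of all tested probe sets from -0.06 to 0.24, 11 of 17 called members were higher in the repeat (64.7%, against 33.3% as deposited). Over all called probe sets that share was 73.9%, against 43.2% as deposited. With quantile normalization 4 called members were higher and 8 lower (33.3%), and 52.3% of all called probe sets were higher. The spread of the run difference over the 8 pools had a median SD of 0.45 on the log2 scale for members and 0.43 for all tested probe sets. The range between the highest and lowest pool had a median of 0.69 for members and 0.69 for all.

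**Figure D5:**
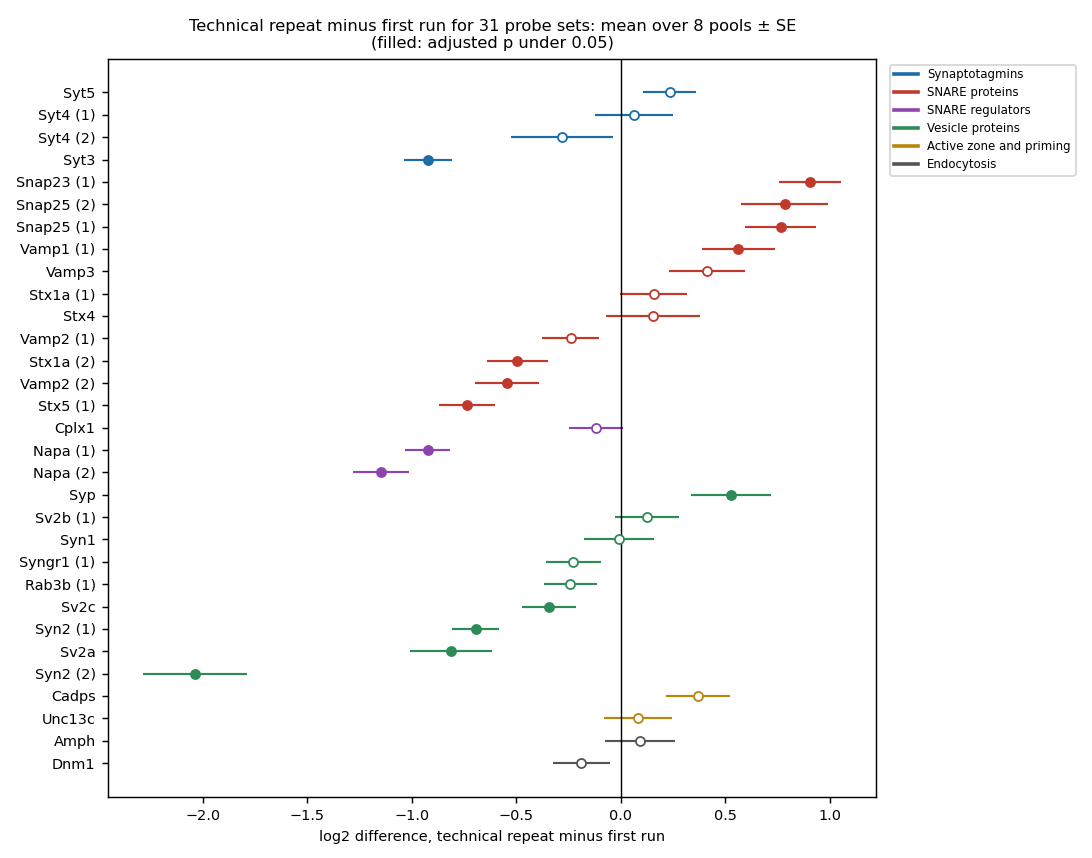
Technical repeat minus first run on the log2 scale for the 31 tested probe sets, as the mean over 8 pools ± SE, with filled points for the 15 with an adjusted p under 0.05. The differences run from -2.04 for the second Syn2 probe set to 0.91 for Snap23.

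A wider list of 112 vesicle genes outside the members (clathrin and adaptors, transporters, proton pump subunits, Rab effectors, further synaptotagmins and SNAREs) had 69 genes on the array, 39 of them above the filter with 49 probe sets. In limma's tests 0 of 49 passed for the rhythm, CT 12 minus CT 0, CT 6 minus CT 18 or day. An unadjusted p under 0.05 was found for 1, 4, 0 and 1, or 2.04%, 8.16%, 0% and 2.04%. Of all tested probe sets 6.36%, 8.67%, 4.26% and 3.96% had one. No share of the list exceeded that of all, and the genes that follow had its smallest p of the rhythm. Doc2a, a calcium sensor of spontaneous release, peaked at CT 14.6 in the fit, its amplitude being 0.26 ± 0.09. Ap2a2, a subunit of the clathrin adaptor, had 0.32 ± 0.12, peaking at CT 0.125. Cadps2, the relative of Cadps, had 0.34 ± 0.13 with a peak at CT 10.2, and Rph3al, a Rab effector, 0.54 ± 0.21 with a peak at CT 13.8. The limma adjusted p of these probe sets lay between 0.746 and 0.759. A second and brighter Rph3al probe set had 0.11 ± 0.13, peaking at CT 10.1. For scale, the clock output gene Dbp had amplitudes of 0.64 ± 0.09 on its brighter probe set and 0.44 ± 0.14 on the other in the same fit (limma adjusted p = 0.166 and 0.746), and the highest amplitude of a member was 0.48.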

How the data were processed

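The authors' deposited values are probe set intensities on a linear scale, 1 column per array. How probes were summarised is not given in the sources used here. These deposited intensities were already scaled per array (mean after trimming 2% at each end, 500.7 to 500.8) and were kept. Values under the 10th percentile (12.1) were set to that floor and log2 taken. Arrays a and b of a time were averaged, then both runs, which left 8 pools as replicates. The 59 controls of 8799 probe sets were left out, and 4370 probe sets with a mean above the median (121) were tested with limma 3.58.1 in R 4.3.3, with Benjamini-Hochberg adjustment over all of them and a threshold of 0.05. Phase differences came from the cosine and sine of the rhythm fit, day from an added term, and run from the 8 within-pool differences. Exact permutation tests covered the tested members alone and were not adjusted. That of day is two-sided, and that of the rhythm counts arrangements with an amplitude at least as large. Exact permutation p values of the rhythm ran from 0.00635 (Dnm1) to 0.990 (Syt5) over the 31 tested probe sets. They are quoted for only a part of these, and a single small value among 31 is not a call. Fits were tested on simulated data.

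Members and lists were chosen with earlier results of these data known. All members are named by range. Values in all pools are given for Syt1, Snap25, Stx1a, Vamp2, Syn1, Syp, Dnm1 and the 4 members with the smallest p in each test. Sv2b and Sv2c values, and the single arrays given, were added after they were seen. Alternatives covered quantile and median scaling, other filters and floors, a pseudocount of 50, limma's trend and robust options, other designs, either run, arrays a or b, or single pools left out, and, chosen after seeing the data, the 3 arrays with high controls left out. Promoter sequences are RefSeq's on GRCr8; Snap25, Syngr1, Syt5, Syt7 and Vamp3 were not matched.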

Additional observations from a re-analysis of the deposited data

Results flagged for a closer look

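Among the 31 tested probe sets, 2 had a pool that stood apart from the other 7 beyond Dixon's 95% limit, and chance marks about 1 in 20 groups. Sv2c was lowest at 30 h, at 111.7 against 211.0 in the next pool, and this pool was the lowest in both runs. Sv2b was lowest at 0 h, at 1314 against 1743 in the next pool. In the first run 0 h was also its lowest time (999), while in the repeat 0 h read 1729 and the lowest time was 36 h at 1718.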

How the results depend on the processing

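For the rhythm, CT 12 minus CT 0, CT 6 minus CT 18 and day, 0 members passed at an adjusted p under 0.05 in every alternative run. Counts at an unadjusted p under 0.05 moved. They are out of 31 members except with no level filter (58) and with the 75th percentile filter (13). Those without single pools are given without the share of all probe sets, and do not describe the members in particular. The rhythm count of 3 became 5 with no level filter (6.51% of all probe sets), 1 with a filter at the 75th percentile (6.45%), 1 in the first run alone (3.82%), and 1 (0 h pool left out) to 6 (24 h) without single pools, with 5 without 42 h. The CT 12 minus CT 0 count of 6 became 3 in the repeat alone (6.82% of all), 3 without arrays a (6.93%), 3 without the 3 arrays with high controls (5.49%), and 2 (0 h left out) to 6 without single pools. Its split of 4 higher and 2 lower became 2 and 2 with quantile normalization, and 1 and 3 with median scaling. For these splits the share of all probe sets is not given. The CT 6 minus CT 18 count of 0 became 3 with no filter (5.42% of all), 2 in the repeat alone (5.42%), 1 with phases as a factor (4.90%) and 0 to 2 without single pools (2 without 42 h). The day count of 0 became 1 with median scaling (3.87% of all), 2 with no filter (5.14%), 1 with the 75th percentile filter (4.12%), 1 with trend and robust (4.07%), 2 in the first run alone (4.32%), 1 with phases as a factor (4.51%), 3 without the 3 arrays (8.35%), and 0 to 2 without single pools (2 without 12 h or 30 h). The run count of 15 became 6 with the 75th percentile filter, which tests 13 members (55.4% of all). The members' medians changed sign over the alternatives in each signed comparison: -0.11 to 0.07 for CT 12 minus CT 0, -0.06 to 0.04 for CT 6 minus CT 18, -0.0071 to 0.072 for day and -0.23 to 0.18 for run. The sign of 2 day differences changed: that of Snap25 to -0.0167 on its other probe set, and that of the second Syn2 probe set to 0.0394 on the brightest and 0.164 without the 3 arrays. Where not given, the cause was not tested. Faint probe sets limit what could be tested: 27 of 58 lay below the filter and 17 of 58 had an array at the floor.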
